A study of Mus musculus with 2 samples.

Results

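NF-kB is a family of transcription factors that drives inflammatory genes, and this report describes its 5 subunit genes (Nfkb1, Nfkb2, Rel, Rela and Relb) and 5 genes of its inhibitors (Nfkbia, Nfkbiz, Nfkbid, Nfkbie and Tnfaip3) in hippocampal microglia. These 10 genes were taken by symbol from the 32285 gene IDs of the files, and all 10 were found, each under 1 ID. Single cells were sequenced in droplets from 2 libraries, the first labelled FGR (fetal growth restriction) and the second Control, both at 3 weeks after birth. Mice of both groups had the genotype Tmem119-tdTomato+/-, a red reporter at the microglial gene Tmem119, and cells were sorted as positive for the Tmem119 marker. The labels do not say how growth was restricted or how many animals were pooled. With a single library on each side, differences between animals or in how each library was prepared cannot be told apart from those between groups. Nothing was tested, and all 95% intervals cover counting error only.

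In resting cells most NF-kB dimers are held in the cytoplasm by inhibitor (IκB) proteins. Signals such as tumour necrosis factor or bacterial products activate a kinase complex that marks the inhibitors for destruction, and the freed dimers enter the nucleus. Among the genes they switch on are those of several of their own inhibitors, which ends the response. In microglia, the resident macrophages of the brain, this pathway governs cytokine and chemokine production.

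Barcodes with at least 1500 unique molecular identifiers (UMIs, 1 per captured transcript), at least 200 genes and at most 10% mitochondrially coded UMIs were counted as cells. This gave 8618 FGR cells with 45441515 UMIs and 10687 Control cells with 53560293 UMIs, at medians of 4919.5 and 4657 UMIs per cell. The libraries shared 31 cell barcodes. All 12 microglial markers were detected in both libraries, and the least widely detected, Sall1, was found in 77.8% of FGR and 88.3% of Control cells. Summed over 57 markers of 8 other cell types, the level was 760.2 UMI counts-per-million (CPM) for FGR and 657.3 CPM for Control cells. Astrocyte markers stood at 325 CPM in FGR and 195 CPM in Control cells, and red blood cell markers at 34.0 and 121.6 CPM. Of the 57 markers, 54 were detected in FGR cells and 50 in Control cells. Ly6c2 and Ly6g were at 0 in both, S100a8 at 0 in FGR cells only, and Cd163, Lyve1, Cd3e, Cd3d and Nkg7 at 0 in Control cells only. The part of these markers in the results below was not tested.

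Because NF-kB feedback acts through promoters, the promoter windows of 4 members are shown, 2 of inhibitors with the largest ratios below and 2 of subunits. Promoter sequences (RefSeq, GRCm38.p6) run from 250 bases before a transcription start to 50 bases from it on, and 7 of the 10 members had at least 1 in the table. Capitals mark matches to the κB consensus motif, the sequence bound by NF-kB dimers, searched on both strands. Each is written 5′ to 3′ on the strand of its gene, here minus for Nfkbia (chr12:55492598-55492897) and Tnfaip3 (chr10:19015361-19015660) and plus for Nfkb2 (chr19:46304487-46304786) and Rela (chr19:5637291-5637590).
Nfkbia: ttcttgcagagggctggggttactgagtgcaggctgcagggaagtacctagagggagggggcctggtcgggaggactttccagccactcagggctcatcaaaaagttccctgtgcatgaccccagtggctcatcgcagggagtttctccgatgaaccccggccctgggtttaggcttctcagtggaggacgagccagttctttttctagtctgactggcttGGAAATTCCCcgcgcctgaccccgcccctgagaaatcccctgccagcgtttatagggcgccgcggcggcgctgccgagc
Tnfaip3: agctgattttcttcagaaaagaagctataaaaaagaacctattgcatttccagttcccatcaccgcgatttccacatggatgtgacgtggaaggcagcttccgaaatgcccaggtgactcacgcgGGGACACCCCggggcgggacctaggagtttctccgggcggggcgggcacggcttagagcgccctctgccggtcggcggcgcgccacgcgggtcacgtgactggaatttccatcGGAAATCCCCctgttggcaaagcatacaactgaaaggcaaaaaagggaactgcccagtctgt
Nfkb2: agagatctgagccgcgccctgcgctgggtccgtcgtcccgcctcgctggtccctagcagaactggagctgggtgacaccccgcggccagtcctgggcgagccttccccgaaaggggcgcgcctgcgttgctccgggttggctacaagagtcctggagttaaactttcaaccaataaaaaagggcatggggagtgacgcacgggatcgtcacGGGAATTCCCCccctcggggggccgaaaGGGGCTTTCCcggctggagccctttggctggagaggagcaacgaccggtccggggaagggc
Rela: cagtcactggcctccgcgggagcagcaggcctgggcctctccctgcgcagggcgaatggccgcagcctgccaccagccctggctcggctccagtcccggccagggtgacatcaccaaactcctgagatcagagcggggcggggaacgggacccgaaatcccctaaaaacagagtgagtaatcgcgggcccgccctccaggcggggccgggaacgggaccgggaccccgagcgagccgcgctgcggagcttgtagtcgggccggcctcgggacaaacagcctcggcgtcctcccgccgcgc
The Nfkbia window held 1 match, from -29 to -20 relative to the start. Of the members' 12 windows, 8 (of 6 members) held a match. In the Tnfaip3 window 2 matches stood at -125 to -116 and at -12 to -3, beside 1 match to the AP-1 motif TGANTCA at -136 to -130 that overlaps neither. The Nfkb2 window held 3 matches, of which 2 overlap and are shown as 1 run of capitals, and no match was found in the Rela window. The Tnfaip3 window shown is 1 of 2, and the other held 0 κB matches. For Nfkb2 it is 1 of 3, and the others overlap and share a κB site that was counted in each. Of all 32851 promoter windows of this length, 8.46% held at least 1 κB match, 1.22% at least 2 and 7.81% an AP-1 match. Windows with a match thus belonged both to Nfkbia and Tnfaip3, whose ratios exceeded 1.5-fold, and to Nfkb2, whose ratio was below 1. A match describes the letters only, and binding was not measured.

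Inhibitors and subunits were set against each other by summing UMIs. Inhibitors together reached 2938 CPM in FGR and 1331 CPM in Control cells, a ratio of 2.21 (2.19 to 2.23). Subunits together stood at 468 CPM in FGR and 518 CPM in Control cells, a ratio of 0.904 (0.887 to 0.920). For each subunit UMI there were 6.28 inhibitor UMIs in FGR cells and 2.57 in Control cells, so the balance of the 2 classes differed 2.44-fold. Most of this was Nfkbia, which made up 73.6% of the inhibitor UMIs in FGR and 62.9% in Control cells and 82.5% of the difference in level. Without Nfkbia the inhibitor ratio was 1.57, and without Nfkbia and Tnfaip3 it was 1.08 (1.06 to 1.10). The median ratio of the 5 inhibitors was 1.28, and that of the 5 subunits 0.942.

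A gene was counted as higher or lower on size alone: the level had to be 10 CPM or more on either side, and the 95% interval of the ratio, FGR over Control, had to lie wholly beyond 1.5-fold. This is called the rule of size. All 10 members reached that level. By this rule 2 of 5 inhibitors were higher and 0 lower, against 2.17% of all 8328 genes measured that were higher and 1.06% that were lower (3.23% in either direction). Of the 5 subunits, 0 were higher and 0 lower. The median log2 ratio was 0.35 for inhibitors, -0.09 for subunits and -0.07 for all genes measured.

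**Figure D1:**
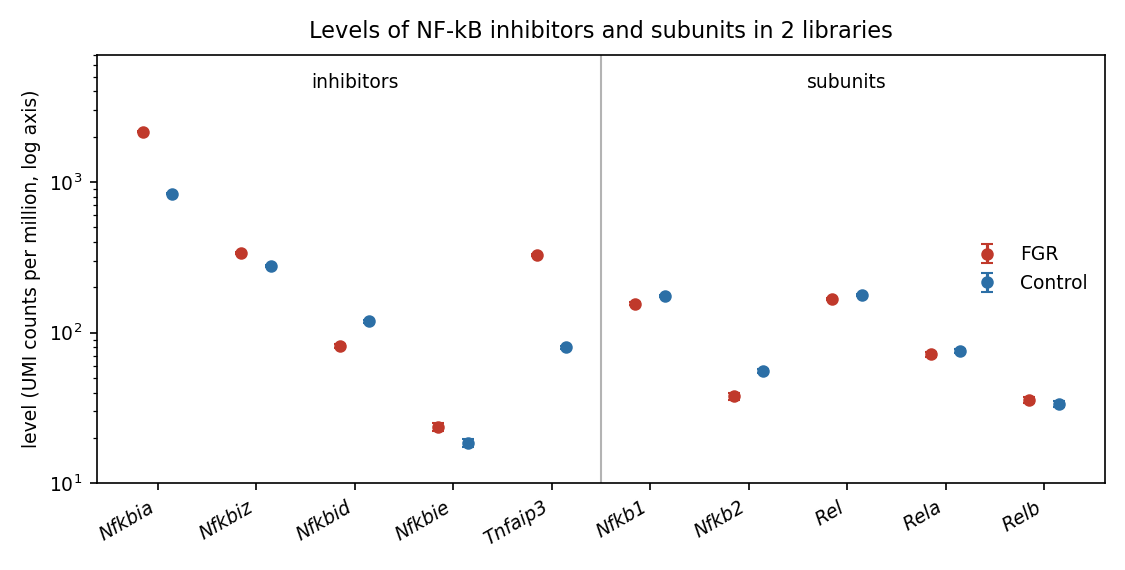
Levels of the 10 members in the FGR and Control libraries, in UMI counts-per-million on a log axis, with 95% Poisson intervals as bars (often smaller than the points). Nfkbia and Tnfaip3 stand apart between the libraries at 2163 against 838 CPM and 329 against 79.7 CPM. Of the subunits, Nfkb2 is the furthest apart, at 37.7 against 55.7 CPM.

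Nfkbia encodes IκBα, the main cytoplasmic inhibitor of RelA and c-Rel dimers and itself an NF-kB target (ENSMUSG00000021025, chromosome 12, 55489410 to 55492647). It held 98310 UMIs (2163 CPM) over the FGR cells and 44866 UMIs (838 CPM) over the Control cells, and the ratio was 2.58 (2.55 to 2.61). This was the 63rd highest ratio of the genes measured. Tnfaip3 encodes a ubiquitin-editing enzyme that dismantles the signalling complexes upstream of the kinases (ENSMUSG00000019850, chromosome 10, 19000910 to 19015657). Its level was 329 CPM in FGR and 79.7 CPM in Control cells, a ratio of 4.13 (3.99 to 4.27) and the 28th highest. For each Nfkbia UMI there were 0.152 Tnfaip3 UMIs in FGR and 0.0951 in Control cells.

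The other inhibitors had ratios closer to 1, with Nfkbiz and Nfkbie above it and Nfkbid below it. Nfkbiz, whose nuclear IκB protein helps switch on secondary targets and represses others (ENSMUSG00000035356, chromosome 16, 55811375 to 55838899), stood at 340.3 CPM in FGR and 276 CPM in Control cells, a ratio of 1.23 (1.21 to 1.26). Nfkbie, which encodes the cytoplasmic inhibitor IκBε (ENSMUSG00000023947, chromosome 17, 45555703 to 45563169), stood at 23.6 and 18.5 CPM, a ratio of 1.28 (1.17 to 1.39). Nfkbid, which encodes a nuclear IκB protein that restrains some cytokine genes (ENSMUSG00000036931, chromosome 7, 30421732 to 30428746), stood at 81.7 CPM in FGR and 119 CPM in Control cells. Its ratio of 0.686 (0.659 to 0.715) was the 189th lowest of the genes measured and pointed away from that of Nfkbia. None of these 3 passed the rule of size.

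Among the subunits, the canonical genes were close to level. Rela encodes the main activating subunit (ENSMUSG00000024927, chromosome 19, 5637483 to 5648130) and stood at 71.7 CPM in FGR and 75.3 CPM in Control cells, a ratio of 0.952 (0.909 to 0.997) that became 1.001 when libraries were scaled to the median ratio. Rel, which encodes c-Rel (ENSMUSG00000020275, chromosome 11, 23736847 to 23770970), stood at 167 and 178 CPM, a ratio of 0.942. Nfkb1, whose precursor protein is cut to a DNA-binding subunit (ENSMUSG00000028163, chromosome 3, 135584655 to 135691547), stood at 156 CPM in FGR and 176 CPM in Control cells, a ratio of 0.887 (0.860 to 0.915). Its span overlaps the same-strand annotation Gm43430, which was not analysed here.

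Nfkb2 and Relb form the dimer of the non-canonical pathway, in which the Nfkb2 precursor holds RelB until it is processed. Nfkb2 (ENSMUSG00000025225, chromosome 19, 46304320 to 46312385) stood at 37.7 CPM in FGR and 55.7 CPM in Control cells, a ratio of 0.676 (0.637 to 0.718) and the 170th lowest. Its span overlaps the opposite-strand gene Psd, which stood at 5.66 and 11.1 CPM, and the labels do not say whether counting used strand. Relb (ENSMUSG00000002983, chromosome 7, 19606217 to 19629438) stood at 35.7 and 33.8 CPM, a ratio of 1.05 (0.986 to 1.13). There were 1.06 Nfkb2 UMIs for each Relb UMI in FGR cells and 1.65 in Control cells. Nfkb2 and Nfkbid missed the rule of size narrowly, and passed it as lower, at 0.587 and 0.604, when Control cells were reweighted to the immediate early levels of FGR cells.

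**Figure D2:**
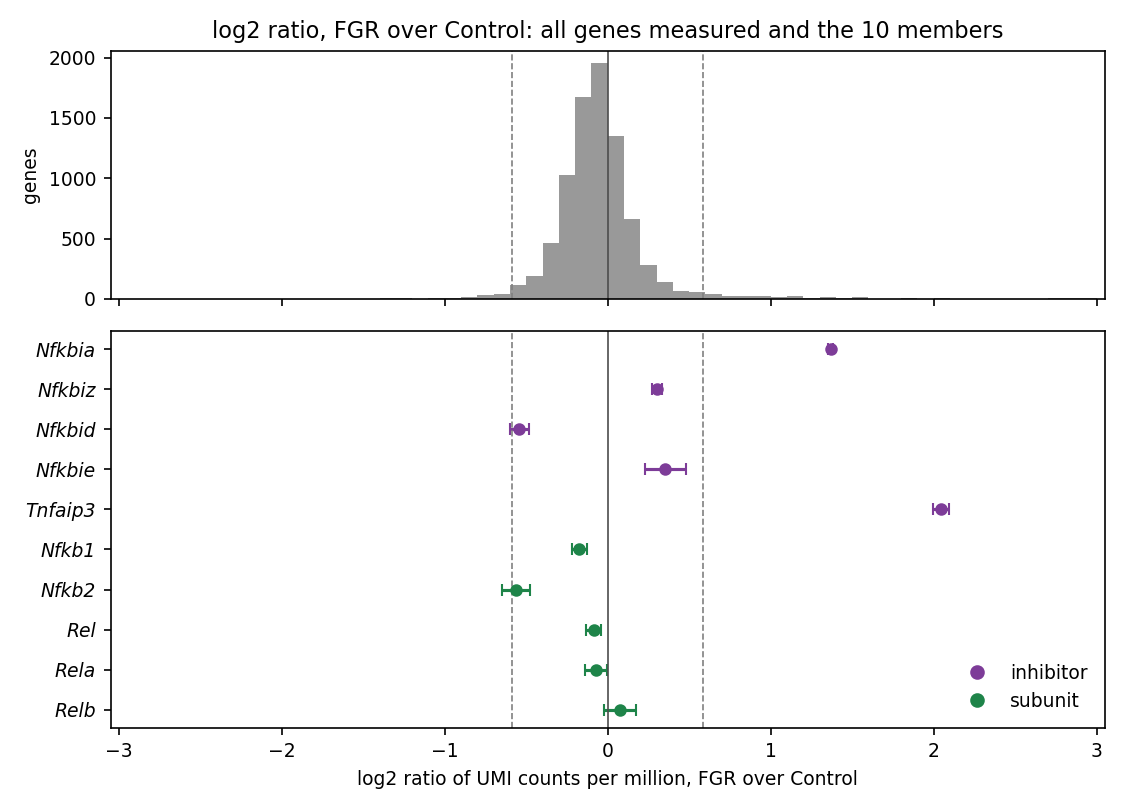
Top, number of genes measured by log2 ratio, FGR over Control, with values beyond 3 drawn in the outer bins and genes at 0 in 1 library left out. Bottom, the 10 members with 95% intervals, inhibitors above subunits, and dashed lines at 1.5-fold. Tnfaip3 and Nfkbia lie far right at 2.05 and 1.37, Nfkb2 and Nfkbid lie next to the left dashed line at -0.56 and -0.54, and the other members lie between the lines.

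Counts per cell showed how widely the members were detected. Each cell was thinned to 1500 UMIs, which left out no cell. Nfkbia had at least 1 UMI in 86.0% of FGR cells (85.3 to 86.8%, Clopper-Pearson) and 59.7% of Control cells (58.8 to 60.7%). At 5 UMIs or more these shares were 23.7% and 3.85%. Tnfaip3 was detected in 30.1% of FGR cells (29.1 to 31.1%) and 10.6% of Control cells (9.98 to 11.2%). Without thinning the shares were 96.6% and 83.6% for Nfkbia and 57.1% and 27.7% for Tnfaip3. The libraries thus differed in the number of cells with a UMI as well as in the number per positive cell, which was 3.57 in FGR and 2.07 in Control cells for Nfkbia and 1.49 and 1.13 for Tnfaip3.

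Detection of Nfkbiz was 30.4% in FGR and 27.0% in Control cells, that of Nfkbid 10.8% and 14.9%, and that of Nfkbie 3.33% and 2.65%. Each subunit was detected in fewer cells than Nfkbiz in both libraries. Nfkb1 was found in 20.4% of FGR and 22.6% of Control cells, Rel in 20.2% and 22.6%, and Rela in 9.64% and 10.6%. For Nfkb2 the shares were 5.56% and 7.38%, and for Relb 5.45% and 4.68%. Any inhibitor was seen in 90.8% of FGR and 74.7% of Control cells, and any subunit in 47.9% and 52.6%. No cell type that should lack these genes was present in sufficient number to serve as a background. Free RNA, read from barcodes of 10 to 100 UMIs, held Nfkbia at 2649 CPM on the FGR side and 1036 CPM on the Control side, and Tnfaip3 at 358 and 73.5 CPM. Free RNA can therefore add to these shares. The shares were not corrected for it. With its profile subtracted at 5% of each library's cell UMIs, the ratio of levels was 2.59 for Nfkbia and 4.10 for Tnfaip3. Free RNA itself had ratios of 2.56 and 4.87, so this subtraction could move the ratios of levels only a little and says nothing of the shares.

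**Figure D3:**
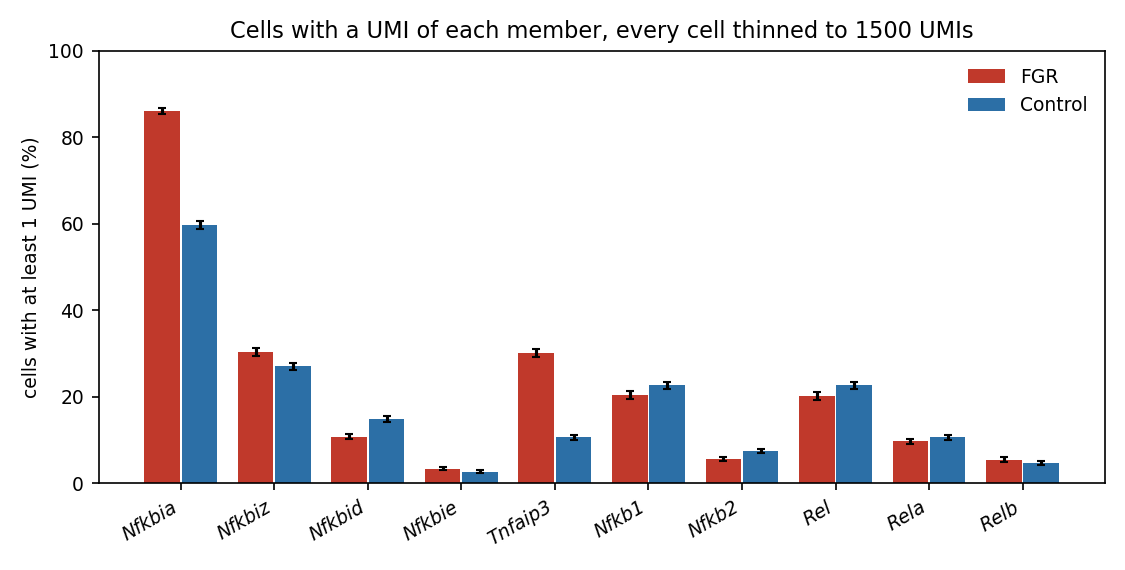
Share of cells with at least 1 UMI of each member after thinning every cell to 1500 UMIs, FGR beside Control, with 95% Clopper-Pearson intervals. The largest gaps are those of Nfkbia, at 86.0% and 59.7%, and Tnfaip3, at 30.1% and 10.6%, while the subunits differ by a few percentage points.

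Whether Nfkbia and Tnfaip3 were found in the same cells differed in degree between the libraries. In FGR cells Tnfaip3 was detected in 15.2% of cells with 0 Nfkbia UMIs, 24.1% with 1 to 2, 35.0% with 3 to 5 and 46.0% with 6 to 9 (43.1 to 49.0%, 1136 cells). In Control cells the shares over the same ranges were 9.23%, 10.6%, 12.95% and 20.3% (14.7 to 26.9%, 182 cells). At each Nfkbia count Tnfaip3 was thus detected more often in FGR cells. Its mean was 0.450 UMIs per thinned FGR cell and 0.119 per thinned Control cell. The part of these sparser Control counts in the shares was not tested. Mean Nfkbiz UMIs per cell followed Nfkbia in both libraries, over these ranges at 0.190, 0.329, 0.541 and 0.754 in FGR cells and 0.261, 0.415, 0.604 and 0.780 in Control cells. Subunit UMIs summed to 0.585 per cell at 0 Nfkbia UMIs and 0.795 at 6 to 9 in FGR cells, and to 0.719 and 1.09 in Control cells. Higher Nfkbia counts therefore went with larger gains in Nfkbiz and with smaller gains in the subunits.

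**Figure D4:**
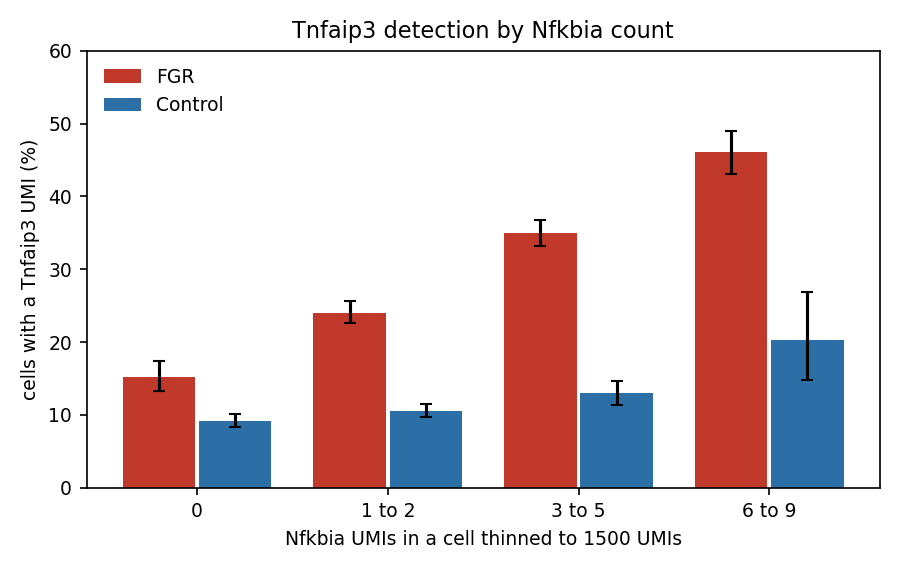
Share of cells with a Tnfaip3 UMI by the number of Nfkbia UMIs in the same cell, all cells thinned to 1500 UMIs, with 95% Clopper-Pearson intervals. The share reaches 46.0% in FGR cells and 20.3% in Control cells at 6 to 9 Nfkbia UMIs. Cells with 10 or more are left out, since the Control library held 9 of them.

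Across cells, the genes most like Nfkbia included Junb, Egr1 and Fos, which belong to the immediate early genes switched on within minutes of a stimulus. Likeness was Pearson's r of log counts over the cells of each library after thinning, among 3219 genes of at least 50 CPM in both. The 5 genes with the highest mean r with Nfkbia were Junb (0.396 in FGR and 0.286 in Control cells), Zfp36 (0.388 and 0.221), Egr1 (0.270 and 0.290), H3f3b (0.314 and 0.180) and Fos (0.299 and 0.188). For Tnfaip3 they were Nfkbia (0.227 and 0.055), Fos (0.225 and 0.049), Zfp36 (0.223 and 0.043), Junb (0.194 and 0.038) and Cd83 (0.183 and 0.040). These values were weak in Control cells, where Tnfaip3 counts were also sparser. The summed inhibitors led with Junb (0.440 and 0.306), Zfp36 (0.440 and 0.2498), Egr1 (0.326 and 0.338), Fos (0.370 and 0.233) and H3f3b (0.376 and 0.210). The summed subunits reached at most 0.112 and 0.091, with Egr1, and Jun, Ier5 and Junb had lower values. Among the members themselves Nfkbia and Nfkbiz had the highest r, 0.239 in FGR and 0.175 in Control cells, and the 10 pairs of subunits lay between -0.02 and 0.03. The values of the subunit pairs, in sparse counts, describe these cells and cannot tell whether a relation is present or absent. Cells of a library share its depth and preparation, so these coefficients have no p-value.

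Immediate early, glucocorticoid-induced and NF-kB target genes also differed in level between the libraries. Summed over 28 immediate early genes the level was 45065 CPM in FGR and 32759 CPM in Control cells. Over 14 glucocorticoid-induced genes, a list that also holds the receptor gene Nr3c1, it was 5450.0 and 2835 CPM, and over 46 targets 8499.6 and 5239 CPM. The most abundant targets in both libraries were Ccl4 (3745 CPM in FGR and 1651 CPM in Control cells) and Ccl3 (1371 and 784 CPM). They held much of the target sum and so weigh heavily in the ranges of target UMIs. Because the lists differed in level, members were compared between cells of like list level, in 4 ranges cut at the joint quartiles. The ratio of Nfkbia stayed between 1.964 and 2.47 over the ranges of immediate early UMIs, 2.23 and 2.54 over those of glucocorticoid-induced UMIs and 2.13 and 2.51 over those of target UMIs. It was thus higher in FGR cells in the ranges low in each list as well as in those high in it.

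Tnfaip3 had ratios that varied more, most widely over the immediate early ranges. Those ranges held 0 to 34, 35 to 52, 53 to 73 and 74 to 245 UMIs. The level of Tnfaip3 in FGR cells was 100.6, 239, 335 and 404 CPM, against 64.5, 81.1, 84.7 and 93.9 CPM in Control cells. The ratio was 1.56 (1.31 to 1.86) in the lowest and 4.30 (3.76 to 4.94) in the highest range. Over the glucocorticoid ranges, from the lowest to the highest, it was 3.13 (2.56 to 3.81), 3.33 (2.90 to 3.81), 3.38 (3.02 to 3.79) and 4.34 (3.64 to 5.20). These intervals overlap. Over the target ranges the ratio rose, at 2.43, 3.07, 3.67 and 4.11. Nfkbid was lower in FGR cells in all 12 ranges, with ratios of 0.441 to 0.712, and each interval lay below 1. The summed subunits lay between 0.749 and 0.931 throughout, but the single subunits did not all follow. Relb had a ratio of 1.40 (1.08 to 1.82) in the highest immediate early range. In the target range of 6 to 10 UMIs it had 1.47 (1.15 to 1.87).

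Nfkbiz and Nfkbie turned direction in some of the ranges of cells compared. The ratio of Nfkbiz, 1.23 over all cells, was 0.674 (0.568 to 0.797) in the lowest immediate early range and 0.934 to 0.998 in the others, where each interval held 1. Over the target ranges it was 0.730, 0.901, 1.08 and 1.37. Over the glucocorticoid ranges it stayed between 1.11 and 1.29, and each interval lay above 1. Nfkbie, at 6 FGR and 86 Control UMIs, had a ratio of 0.401 (0.143 to 0.909) in the lowest glucocorticoid range and 1.56 (1.04 to 2.45) in the highest. In no other range of the 3 lists did the interval of Nfkbie lie below 1. The part of the 3 lists in the differences of the members was not tested.

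**Figure D5:**
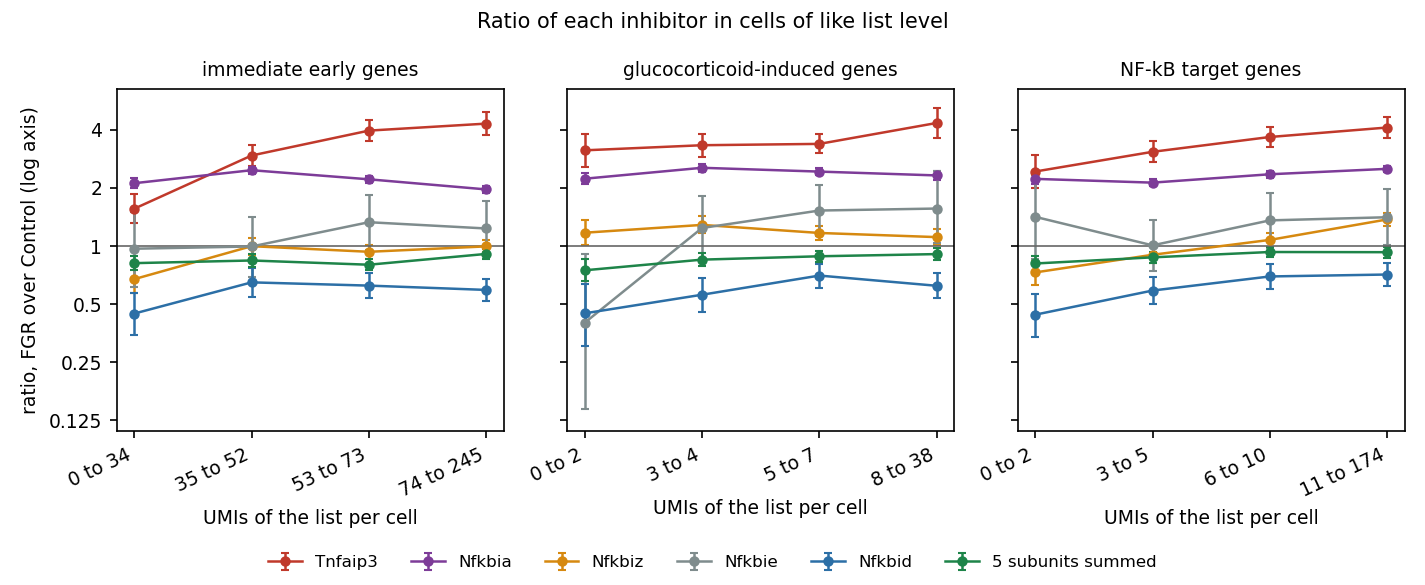
Ratio, FGR over Control, on a log axis in 4 ranges of cells by the UMIs of a gene list per cell thinned to 1500 UMIs, with 95% intervals. Nfkbia keeps a ratio near or above 2 in each of the 12 ranges. Tnfaip3 climbs between 1.56 and 4.30 over the immediate early ranges and also rises over the target ranges. Over the glucocorticoid ranges its intervals overlap. Nfkbid and the summed subunits lie below 1 in all.

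The rest of the pathway is given list by list, beside the 2.17% of all genes that passed the rule of size as higher and 1.06% as lower. Of 13 receptors measured, 0 were higher and 0 lower, with a median log2 ratio of -0.08. Cd14, which presents bacterial lipid to the receptor Tlr4, stood at 401 CPM in FGR and 282 CPM in Control cells (ratio 1.42), and Tlr7, a sensor of single-stranded RNA, at 230.0 and 172 CPM (1.33). Tnfrsf13b and Tlr6 had ratios of 0.774 and 0.809. Receptors of tumour necrosis factor were near level, with 0.942 for Tnfrsf1a and 0.906 for Tnfrsf1b.

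Of 28 kinases and adaptors measured, 1 was higher and 0 were lower, with a median log2 ratio of -0.10. Map3k8, a kinase that the Nfkb1 precursor holds in check and that drives the ERK pathway, stood at 93.5 CPM in FGR and 43.7 CPM in Control cells, a ratio of 2.14 (2.04 to 2.25). Birc3, a ubiquitin ligase and NF-kB target, had a ratio of 1.496 (1.41 to 1.59). Map3k14, the kinase that triggers processing of the Nfkb2 precursor, stood at 20.7 and 31.5 CPM, a ratio of 0.657 (0.606 to 0.712), and Traf2, which helps keep that kinase low, had 0.735. Chuk, Ikbkb and Ikbkg, which encode the kinase complex that marks IκB proteins, had ratios of 0.872, 0.947 and 0.899 and did not pass the rule.

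Of 15 other inhibitors measured, 1 was higher and 0 were lower, with a median log2 ratio of 0.00. Zfp36, whose protein destabilises cytokine transcripts, stood at 3808 CPM in FGR and 2365 CPM in Control cells, a ratio of 1.61 (1.599 to 1.62). Tnip1 and Tnip2, partners of the Tnfaip3 protein, had ratios of 0.867 and 0.772, and the ubiquitin ligase Itch 0.871. Nfkbib, which encodes the third classical IκB protein, had a ratio of 1.03 (0.954 to 1.12), and Cyld, a deubiquitinase that restrains the pathway, 1.005 (0.959 to 1.05).

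Of 30 NF-kB targets measured, 13 were higher and 1 lower, with a median log2 ratio of 0.25 against -0.07 for all genes measured. The 4 furthest from level were the chemokine genes Cxcl10 (157 CPM in FGR and 21.2 CPM in Control cells) and Cxcl2 (43.7 and 11.3 CPM), the adhesion gene Vcam1 (11.2 and 3.02 CPM) and Ccrl2, a non-signalling chemoattractant receptor (261 and 73.4 CPM), with ratios of 7.40, 3.88, 3.70 and 3.56. Marcksl1 was the 1 that passed as lower, at 0.513 (133 CPM in FGR and 259 CPM in Control cells). Over all 30, the ratio was above 1 for 20 and below 1 for 10. Targets that did not pass the rule, named after their values were seen, lay on both sides of 1. Those above it included Il1b at 1.399, Bcl2a1b at 1.198, Ccl9 at 1.18 and the cytokine gene Tnf at 1.14. Those below it included Il1a at 0.862, Ccl2 at 0.772, the adhesion gene Icam1 at 0.827 and Nlrp3 at 0.768. The targets thus did not move as 1 group.

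Among 27 immediate early genes measured, 13 were higher and 1 lower (median log2 ratio 0.58). The furthest from level were Dusp1, a phosphatase of MAP kinases (4.68), Rgs1 (2.60), Socs3 (2.54) and Maff (2.29). Among 12 genes measured of the glucocorticoid-induced list, 7 were higher and 0 lower (median 0.96), led by Ddit4 (5.78), Klf9 (3.56), Tsc22d3 (2.95) and Sgk1 (2.16). The 12 include the receptor gene Nr3c1, at a ratio of 0.951. These lists, like that of NF-kB targets and the other pathway lists, were chosen with earlier results of these libraries known. They are not independent evidence of their direction.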

How the data were processed

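Sorting by flow cytometry for Tmem119 (spelled Tem119) and a 10x Genomics 3′ kit are stated per the labels' protocols. The authors deposited unnormalized UMI counts for every barcode. The file headers name Cell Ranger 4, and the submitters' processing notes name Cell Ranger 3.0, Seurat 5.0 and the build mm10. No annotation is named there.

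Counts of 38 symbols with more than 1 ID were summed. Of the FGR barcodes at the UMI minimum, 2 were removed for few genes and 27 for mitochondrial UMIs, and of the Control barcodes 3 and 16. No doublet caller was run, and doublets remain in the data. Cells were summed per library and scaled to CPM. Levels have exact Poisson, ratios exact conditional and shares exact Clopper-Pearson 95% intervals. PCR duplicates are collapsed by UMI, and intervals cover counting error only. Coordinates are those of GENCODE M21 (GRCm38), matched by gene ID. The calculation was tested on simulated data. Python 3.11.15, NumPy 2.4.6, SciPy 1.17.1 and pandas 2.3.3 were used.

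Named were all 10 members, the 4 measured genes of each other pathway list furthest from level on the log2 scale, and up to 5 genes by likeness for each member past the rule of size and both sums, without predicted and ribosomal genes. A gene that this rule names for the summed subunits is not reported here. Tnfrsf1a, Tnfrsf1b, Chuk, Ikbkb, Ikbkg, Nfkbib, Cyld, Ccl3, Ccl4, Marcksl1 and Nr3c1 fall outside this rule and were chosen after their values were seen. Members, lists and rules were chosen with earlier results of these data known.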

Additional observations from a re-analysis of the deposited data

Results flagged for a closer look

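Barcodes below the limit for cells, which are outside the counts of cells, also had higher levels in the FGR library of the 2 inhibitors with the largest ratios, which in cells were 2.58 for Nfkbia and 4.13 for Tnfaip3. In barcodes of 10 to 100 UMIs the ratio, FGR over Control, was 2.56 (2.45 to 2.67) for Nfkbia, from 6936 FGR and 3018 Control UMIs, and 4.87 (4.19 to 5.67) for Tnfaip3, from 936 and 214 UMIs. In barcodes of more than 100 and fewer than 1500 UMIs it was 3.27 (2.96 to 3.63) for Nfkbia and 4.08 (2.93 to 5.78) for Tnfaip3. The difference from the ratio in cells was not tested. Both were picked out because the signal appears in barcodes outside the main measurement. These barcodes come from the same 2 libraries and are not independent of the cells.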

How the results depend on the processing

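With 1 library per group, variation between animals or in library preparation cannot be told apart from the difference between groups. No paired analysis was possible because each group holds 1 library. Over 10 alternatives the ratio of Nfkbia lay between 2.25 and 2.71 and that of Tnfaip3 between 3.78 and 4.34, and both passed the rule of size in each. The ratio of Rela turned to 1.001 when scaled to the median ratio. Summed inhibitors, at 2.21, came to 2.17 with microglial markers only (72.5% of FGR and 80.8% of Control cells kept), 2.32 scaled to the median ratio, 2.14 as a mean over cells, 1.92 matched on immediate early UMIs and 2.12 thinned to 1500 UMIs. By choice of members they came to 1.57 without Nfkbia, 2.09 without Tnfaip3, 2.46 without Nfkbiz, 2.005 with Nfkb1 and Nfkb2 counted as inhibitors and 1.28 as the median of members. Summed subunits, at 0.904, came to 0.9496 scaled to the median ratio, 0.854 matched on immediate early UMIs, 0.958 without Nfkb1 and Nfkb2 and 0.942 as a median. The inhibitor ratio over the subunit ratio, at 2.44, came to 2.38 as a mean over cells, 2.25 matched and 2.37 thinned. By choice of members it came to 1.74 without Nfkbia, 2.31 without Tnfaip3, 2.73 without Nfkbiz, 2.09 with Nfkb1 and Nfkb2 moved and 1.36 as medians. The causes of these shifts were not tested, apart from the choice of members, which sets them by construction. UMI minimums of 1000 and 3000, a 5% mitochondrial limit, leaving out the 6% of cells with the most UMIs and subtracting free RNA at 5% left both summed ratios within their intervals and the inhibitor ratio over the subunit ratio between 2.41 and 2.46. Genes past the rule, 181 higher and 88 lower, numbered 87 and 41 at a minimum of 50 CPM, 709 and 237 with no minimum and 89 and 24 at a fold of 2, as the stricter or wider limits by construction give.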

Other observations

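In cells with at least 3 UMIs of 8 genes of activated microglia such as Lgals3 and Lpl (1854 FGR and 2938 Control cells), Nfkbia stood at 2294 CPM in FGR and 917 CPM in Control cells, and Tnfaip3 at 349.5 and 80.4 CPM. Nfkbiz had a ratio of 1.39 there and Nfkbid of 0.665. In cells with at least 3 UMIs of 7 astrocyte genes (194 FGR and 91 Control cells), Nfkbia had a ratio of 2.88, Tnfaip3 of 4.69 and the summed subunits of 0.892. These are ranges cut from a count, not cell types.

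The ratios of the members also varied with the depth of the cell, in 4 ranges cut at the joint quartiles of UMIs per cell. From the shallowest to the deepest range Tnfaip3 had ratios of 2.63, 3.46, 4.30 and 4.49, Nfkbia 2.35, 2.42, 2.52 and 2.67, and Nfkbiz 0.865, 0.954, 1.17 and 1.38. Nfkbid lay between 0.601 and 0.706 and the summed subunits between 0.872 and 0.929. The part of depth in these values was not tested.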
